A study of Danio rerio with 3 samples.

Results

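Skin ionocytes are scattered cells of the embryonic fish epidermis that take up or release ions, a task the gills share later in life. In zebrafish, the forkhead factors Foxi3a and Foxi3b set epidermal progenitors on the ionocyte path, while Delta and Jagged ligands acting through Notch restrict how many progenitors take it. The mature cells fall into types named for their transport proteins. H+-ATPase-rich cells secrete acid with a V-type proton pump and carbonic anhydrases, a type that depends on the transcription factor Gcm2, Na+/K+-ATPase-rich cells take up calcium through Trpv6, and NCC cells take up sodium and chloride through an Na+-Cl- cotransporter. Genes of these cells were chosen by name: 9 genes were listed, and those with a probe in the platform's annotation were taken. These genes, and the lists set beside them below, were chosen with earlier results of these data known. Their shares are therefore described and not tested. Of the 9 listed genes, 8 were measured, by 12 of 43603 probes, among 15571 genes in all; foxi3a had no probe in that annotation and was not analysed here.

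The embryos were wild-type zebrafish of the strain the labels call Ab. The treated groups were exposed to 40 µM of LY-364947, an inhibitor of the TGF-β type I receptor kinase, from 8 to 48 hours post fertilisation, and control embryos were left untreated; RNA came from whole embryos at 48 hours, with 10 to 15 embryos per biological replicate. RNA of each of 3 treated replicates was hybridised on its own 2-colour array against 1 pool made from 3 untreated replicates. Treated RNA was labelled with Cy3 for replicates 1 and 3 and with Cy5 for replicate 2, the dye swap. The comparison asks which ionocyte transcripts differed between inhibitor-treated and untreated embryos.

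The values are log ratios between the RNA of the treated embryos and that of the pool. As deposited, the array of replicate 2 correlated with those of replicates 1 and 3 over all probes at r = -0.742 and r = -0.647, so its sign was turned, and each value below runs in the sign of replicates 1 and 3. Those 2 arrays, with the same dye order, correlated with each other less closely, at r = 0.521. Read by the order of names in the sample titles, a positive value means more RNA in treated embryos, while the order Cy5 over Cy3 makes it more in the untreated pool. The labels did not settle which holds, so genes are placed only on a positive or a negative side of 0, and no rise or fall with the inhibitor is claimed. The log base was not given either and was taken as 2. The ratios carry no brightness, so neither the level of a gene nor the presence of ionocyte RNA on the arrays could be checked. In whole embryos, a different number of ionocytes and a different amount of RNA in each cannot be told apart.

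The ionocyte genes did not move as a block. The carbonic anhydrase gene ca2 and the proton pump gene atp6v1aa lay on the positive side, the carbonic anhydrase gene ca15a lay on the negative side, and the transcription factors and the transporters for calcium, sodium chloride and bicarbonate did not pass the test. With limma and a Benjamini-Hochberg adjusted p of 0.05, 2 of 8 measured genes passed with a positive ratio, as 9.92% of all genes did, and 1 of 8 with a negative ratio, as 9.43% did. In all 3 of 8 passed, against 19.4% of all genes, and with so few genes the share is not set apart from that background. The median ratio of the 8 genes was 0.026, and that of all genes was -0.0013. The 3 arrays had 1 sign for 5 of the 8 genes, against 52.3% of all genes.

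**Figure D1:**
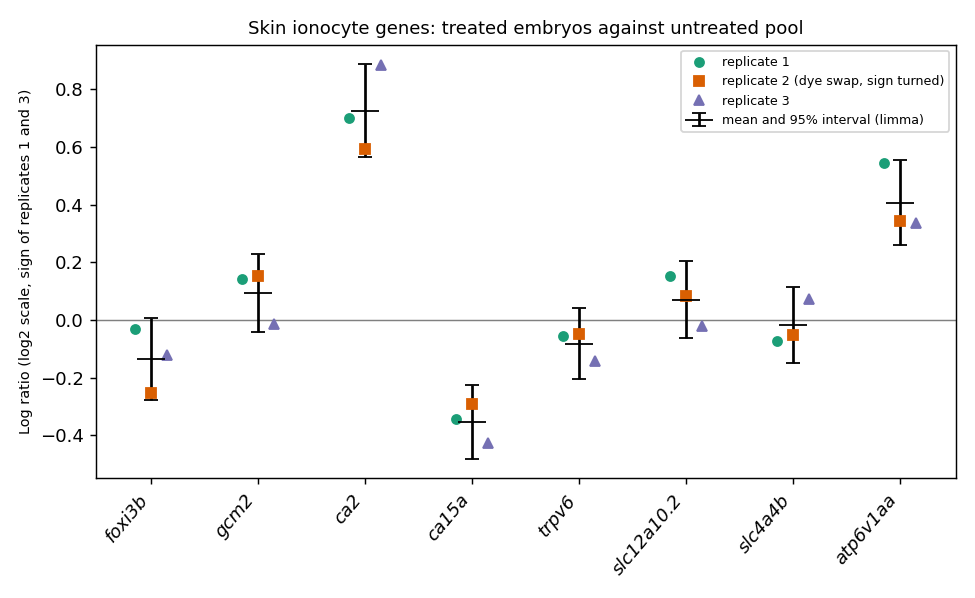
Log ratio (log2 scale, vertical axis) of the 8 measured ionocyte genes (horizontal axis) on each of the 3 arrays, with the sign of replicate 2 turned; horizontal bars are means and whiskers 95% intervals from limma. The points of ca2 and atp6v1aa lie above 0 on every array and those of ca15a below 0, while the intervals of the other 5 genes include 0.

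Transcription factor genes of the lineage were measured for Foxi3b and Gcm2. The forkhead gene foxi3b had log ratios of -0.031, -0.25 and -0.12 on replicates 1, 2 and 3. All 3 values lay on the negative side but were spread widely for their size, and the mean of -0.14 ± 0.11 (SD, n = 3) did not pass (adjusted p = 0.176, 95% interval -0.28 to 0.0082). The gene gcm2, which in zebrafish is needed for H+-ATPase-rich cells and also acts in the pharyngeal arches, had 0.14, 0.15 and -0.013. Replicates 1 and 2 were alike and replicate 3 lay near 0, giving a mean of 0.094 ± 0.093 (SD, n = 3), which did not pass (adjusted p = 0.315, interval -0.042 to 0.23). Both intervals include ratios of the median size over all genes, 0.089, so the missed threshold does not show that either gene was equal in treated embryos and pool.

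Of the effector genes of acid secretion, ca2 stood furthest from 0. It encodes a cytosolic carbonic anhydrase, an enzyme that turns carbon dioxide and water into bicarbonate and a proton. Its log ratios were 0.70, 0.59 and 0.88 on replicates 1, 2 and 3. All arrays put it on the positive side. As the average of its 2 probes, its smallest value exceeded the largest value of every other measured ionocyte gene. This is lost with the first ca2 probe alone, whose smallest value was 0.47, while atp6v1aa reached 0.54 on replicate 1. The mean and rank of ca2 given next are those of the probe average. The mean of 0.73 ± 0.15 (SD, n = 3) is a 1.65-fold difference (adjusted p = 0.000898, interval 0.57 to 0.89) and ranked 256th in size among the 15571 genes.

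The gene ca15a, which encodes a membrane-anchored carbonic anhydrase of H+-ATPase-rich cells, lay on the other side. It had log ratios of -0.34, -0.29 and -0.43 on replicates 1, 2 and 3, close together and all negative. The mean of -0.35 ± 0.069 (SD, n = 3) is a 1.28-fold difference (adjusted p = 0.00535, interval -0.48 to -0.23). On the same arrays the ratio of ca2 exceeded that of ca15a by 1.045, 0.88 and 1.31, a mean gap of 1.08 ± 0.22 (SD, n = 3) that appeared in 3 of 3 arrays. The gap was not tested on its own, since both genes were picked out after their values were seen. The arrays share the untreated pool, so a peculiarity of that pool would appear in the gap on every array.

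The proton pump gene atp6v1aa encodes an A subunit, the catalytic subunit of the pump's cytosolic V1 sector. Its log ratios were 0.54, 0.34 and 0.34. Replicate 1 was the highest and the other arrays nearly equal, with a mean of 0.41 ± 0.12 (SD, n = 3), a 1.33-fold difference (adjusted p = 0.00533, interval 0.26 to 0.55). It ranked 1068th in size, against 1400th for ca15a. Against a minimum change of 1.2-fold instead of no change, the calls of atp6v1aa (adjusted p = 0.41) and ca15a (adjusted p = 0.84) were lost, and that of ca2 was kept.

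Among the listed members, the transporter genes of the other ionocyte types lay near 0. Further transport genes of skin ionocytes, some of which passed on either side, are given below. The calcium channel gene trpv6, of Na+/K+-ATPase-rich cells, had log ratios of -0.057, -0.049 and -0.14. All were small and negative, and the mean of -0.082 ± 0.051 (SD, n = 3) did not pass (adjusted p = 0.332, interval -0.20 to 0.040). The Na+-Cl- cotransporter gene slc12a10.2, which defines NCC cells, had 0.15, 0.082 and -0.020, with a mean of 0.071 ± 0.086 (adjusted p = 0.444, interval -0.062 to 0.20). The bicarbonate cotransporter gene slc4a4b, of the same cells, had -0.074, -0.054 and 0.073, with a mean of -0.018 ± 0.079 (adjusted p = 0.862, interval -0.15 to 0.11). For the last 2 genes the arrays disagreed in sign. The upper ends of these intervals lie well under the ratio of ca2, and the lower ends do not reach that of ca15a.

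Set in order, the means ran from ca2 through atp6v1aa, gcm2, slc12a10.2, slc4a4b, trpv6 and foxi3b to ca15a. The 95% interval of ca2 did not overlap that of atp6v1aa, which in turn did not overlap that of gcm2. This separation of ca2 from atp6v1aa is lost with the first ca2 probe alone, whose interval ran from 0.39 to 0.65. The intervals of gcm2, slc12a10.2, slc4a4b, trpv6 and foxi3b overlapped one another. Whether intervals overlap does not test the order of genes measured on the same arrays, and no order was tested. The interval of ca15a overlapped that of foxi3b and lay below those of the other measured genes. The ratio of ca2 exceeded that of atp6v1aa by 0.16, 0.25 and 0.55 on replicates 1, 2 and 3.

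**Figure D2:**
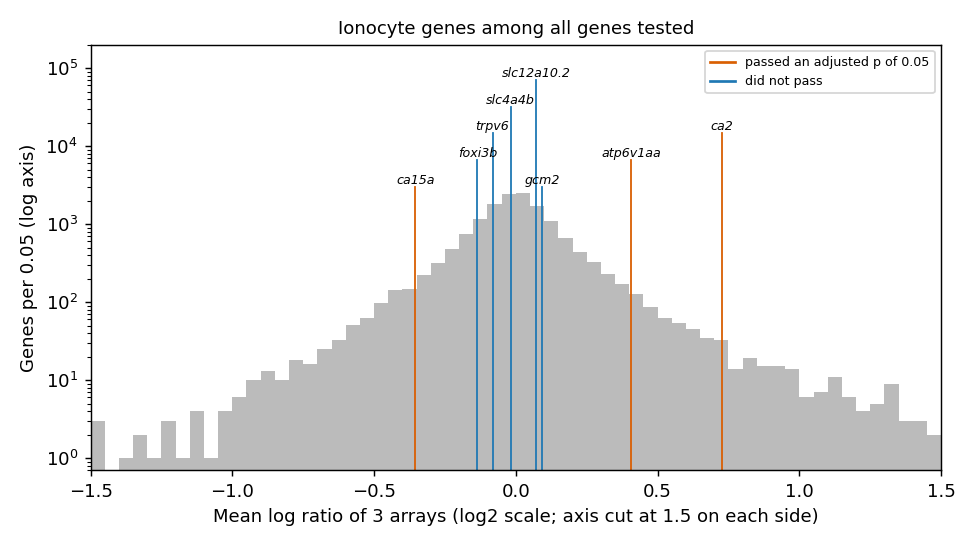
Histogram of the mean log ratio (log2 scale, horizontal axis, cut at 1.5 on each side) of all 15571 genes, with the number of genes per bin on a log axis; vertical lines mark the 8 ionocyte genes. The 5 genes that did not pass fall in the tall centre, ca15a and atp6v1aa on the shoulders and ca2, ranked 256th in size, in the positive tail.

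Where a gene had more than 1 probe, the probes were also read singly, with p adjusted over all probes, of which 10.4% passed. The 2 probes of ca2 had means of 0.52 ± 0.039 and 0.93 ± 0.33 (SD, n = 3), and both passed (adjusted p = 0.00254 and 0.00485). They agreed in side but not in size, since the second had 0.87, 0.64 and 1.30 where the first had 0.54, 0.54 and 0.47. Their gap of 0.42 was wider than the 90th percentile of 0.263 over the 4511 genes with 2 probes. The size of the ca2 difference, and the spread between its arrays, therefore rest partly on the second probe, while its side does not.

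Both atp6v1aa probes passed as well, at 0.49 ± 0.086 (adjusted p = 0.00408) and 0.32 ± 0.17 (adjusted p = 0.0431), with a gap of 0.17. The single ca15a probe passed at an adjusted p of 0.0117 over all probes. The probes of gcm2 had means of 0.033 ± 0.17 and 0.15 ± 0.034. On replicate 3 they differed in sign, at -0.16 and 0.14, and neither passed (adjusted p = 0.853 and 0.140). The probes of trpv6 had means of 0.0067 ± 0.085 and -0.17 ± 0.076, and neither passed (adjusted p = 0.967 and 0.130). The genes foxi3b, slc12a10.2 and slc4a4b had 1 probe each, so no second probe could be set beside them.

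**Figure D3:**
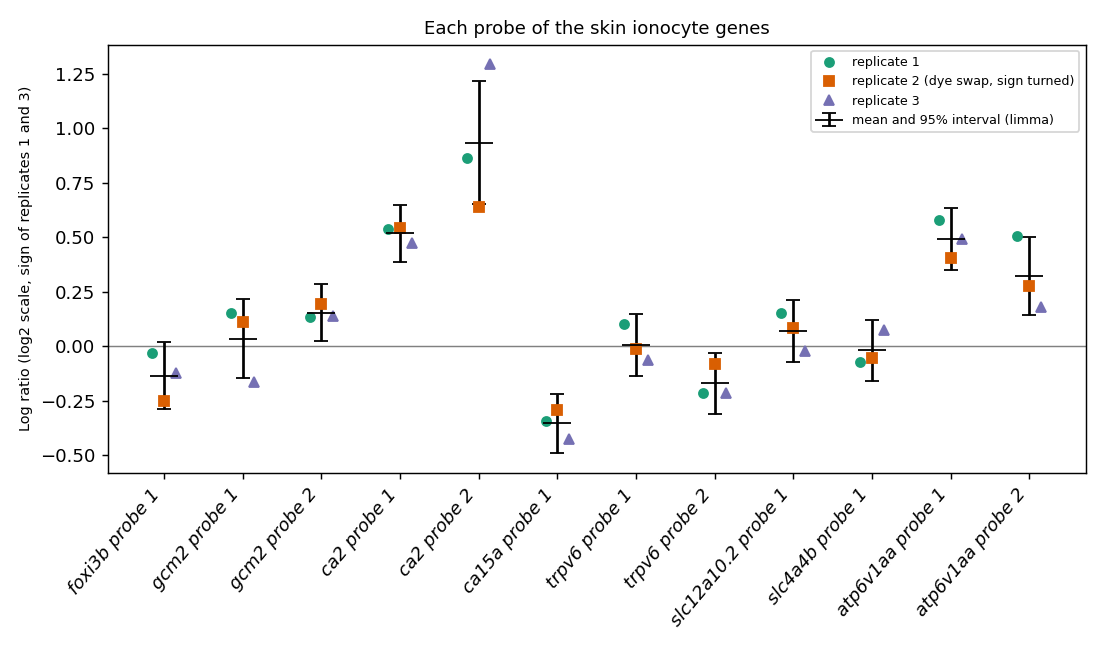
Log ratio (log2 scale, vertical axis) of each of the 12 probes of the ionocyte genes (horizontal axis) on the 3 arrays, with means and 95% intervals from limma. Both probes of ca2 and both of atp6v1aa lie above 0 on every array, and the second ca2 probe reaches 1.30 on replicate 3.

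Other transport genes of skin ionocytes were listed from general knowledge of these cells, with earlier results of these data known. Of 27 measured, 4 passed with a positive and 3 with a negative ratio, and 20 did not pass, shares near the 9.92% and 9.43% of all genes. The list's median was 0.049. Calcium pump gene atp2b2, of the plasma membrane, had nearly equal values of 0.35, 0.36 and 0.34, a mean of 0.35 ± 0.0059 (SD, n = 3, adjusted p = 0.00403), and the sodium-proton exchanger gene slc9a3.1 had 0.38 ± 0.19 (adjusted p = 0.0164). On the negative side stood kcnj1a.5, of the inward-rectifier potassium channel family found in K+-secreting ionocytes, with -0.78, -0.88 and -0.39 and a mean of -0.68 ± 0.26 (adjusted p = 0.00395). Its copies kcnj1a.1 (0.076 ± 0.076) and kcnj1a.3 (0.15 ± 0.15) had positive means and did not pass. Nor did kcnj1a.2 (-0.23 ± 0.31) and kcnj1a.6 (-0.057 ± 0.21), with negative means. These copies were named after their values were seen.

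Genes of the Na+/K+-ATPase α subunit that sit in ionocytes and elsewhere pointed both ways, with atp1a1a.2 at -0.33 ± 0.11 (adjusted p = 0.0106) and atp1a1a.4 at 0.27 ± 0.12 (adjusted p = 0.0231). The others that passed were the ammonia transporter gene rhbg (0.22 ± 0.091) and igfbp5b (-0.23 ± 0.13), which was on the list but is not a transporter gene. Its relative igfbp5a had -0.013 ± 0.097 and did not pass (adjusted p = 0.907). The genes rhbg, igfbp5b, igfbp5a and atp1a1a.4 were named after their values were seen. The copies atp1a1a.3 (0.20 ± 0.078, adjusted p = 0.0501) and atp1a1a.5 (0.14 ± 0.069, adjusted p = 0.131) were positive on every array but did not pass. They too were named after their values were seen. Copies of the atp1a1a and kcnj1a groups share sequence, so their probes may bind each other's RNA. Among those that did not pass were the ammonia transporter genes rhcga (0.057 ± 0.054) and rhcgb (0.069 ± 0.088), the anion exchanger gene slc4a1b (0.018 ± 0.11) and the sodium-calcium exchanger gene slc8a1b (-0.075 ± 0.11), all chosen after their values were seen. The counts of this list moved with single arrays. Without replicate 2, 0 passed on the positive side by limma (4 at an unadjusted p under 0.05), and without replicate 3, 5 passed on the negative side.

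Many other genes of the proton pump, though not all, lay on the same side as atp6v1aa. Of 21 measured genes for its other subunits and accessory proteins, 11 passed with a positive ratio and 1 with a negative one, where 9.92% and 9.43% of all genes did, and 9 did not pass. The list was chosen with earlier results of these data known, so this contrast does not test the pump genes as a set. The median of the list was 0.24, against -0.0013 for all genes. The proton pore subunit gene atp6v0cb had 0.72, 0.61 and 0.61, a mean of 0.65 ± 0.066 (SD, n = 3, adjusted p = 0.000557). The V1 genes atp6v1e1b (0.42 ± 0.032, adjusted p = 0.00222) and atp6v1g1 (0.41 ± 0.10, adjusted p = 0.00455) had ratios close to that of atp6v1aa. The negative member was atp6v0e1, a small membrane-sector subunit, at -0.50 ± 0.081 (adjusted p = 0.0017). In the cytosolic V1 sector, 6 of 10 measured genes passed with a positive ratio and 0 with a negative one by limma (7 and 0 at an unadjusted p under 0.05), and in the membrane V0 sector 5 of 8 and 1. Of the 3 accessory protein genes, 0 passed (1 at an unadjusted p under 0.05). The second A subunit gene, atp6v1ab, had 0.11 ± 0.10 and did not pass (adjusted p = 0.249). The ratio of atp6v1aa exceeded that of atp6v1ab by 0.42, 0.13 and 0.33 on replicates 1, 2 and 3, a gap that was not tested.

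**Figure D4:**
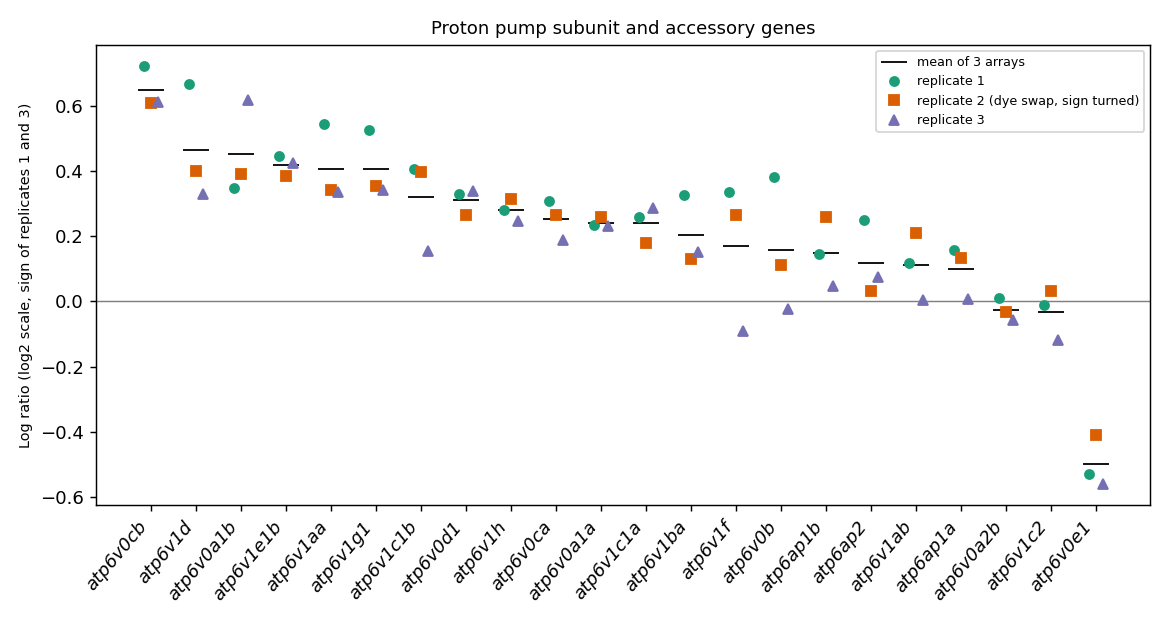
Log ratio (log2 scale, vertical axis) of atp6v1aa and the 21 other measured proton pump genes (horizontal axis, ordered by mean) on the 3 arrays; horizontal bars are means. Means run from atp6v0cb at 0.65 down to atp6v0e1 at -0.50, and 11 of the 21 other genes passed with a positive ratio.

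The pump also acidifies vesicles and lysosomes in most cells, synaptic vesicles of neurons among them. A list of neuronal markers, drawn up after the values were seen, lay mostly on the same side. Of 15 measured, 11 passed with a positive ratio and 0 with a negative one by limma (12 and 0 at an unadjusted p under 0.05). Over all genes, 9.92% passed with a positive and 9.43% with a negative ratio. Because the list was drawn up with the values known, this contrast is no test of neuronal genes. The list mean was 0.41, 0.46 and 0.53 on replicates 1, 2 and 3. The synaptic vesicle gene sypb stood at 0.87 ± 0.015, the synaptic fusion gene snap25b at 0.75 ± 0.071, the G-protein subunit gene gng3 at 0.70 ± 0.030 and the synuclein gene sncb at 0.59 ± 0.018. The 4 neuronal markers that did not pass were nefma (0.33 ± 0.32), elavl3, snap25a (0.095 ± 0.074) and map1b (-0.0055 ± 0.13). Of these, elavl3 had -0.16, 0.091 and 0.74 on replicates 1, 2 and 3. The part of neuronal RNA in the ratios of atp6v1aa and the other pump genes was not tested.

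Among the other carbonic anhydrase genes, 1 of 13 measured passed, a share not set apart from the 19.4% of all genes. It was ca10a, whose mammalian counterpart is catalytically inactive and expressed in the brain, at 0.42 ± 0.046 (SD, n = 3, adjusted p = 0.0025). The gene cahz, a further cytosolic carbonic anhydrase found in red blood cells and Müller glia, had -0.29, 0.012 and -0.16, and at -0.14 ± 0.15 it missed the threshold (adjusted p = 0.199). The ratio of ca2 exceeded that of cahz by 0.99, 0.58 and 1.04. Next smallest in adjusted p were ca10b (0.10 ± 0.12) and ca16b (0.072 ± 0.065), neither of which passed. In the GRCz12tu assembly, ca15a lies in a group with ca15b and ca15c. These neighbours had means of 0.071 ± 0.11 and 0.044 ± 0.038 and did not pass (adjusted p = 0.481 and 0.614). The gap between them and ca15a was not tested, and whether the probes tell the neighbours apart was not checked.

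Cytosolic carbonic anhydrases also occur in red blood cells, glia and the retina. Of 10 measured red cell markers, 3 passed with a negative ratio and 0 with a positive one by limma (5 and 0 at an unadjusted p under 0.05). Over all genes, 9.43% passed with a negative and 9.92% with a positive ratio. The red cell list had means of -0.20, -0.17 and -0.34 and a median of -0.14. The globin gene hbbe3 had -1.12 ± 0.29 (adjusted p of 0.000899), and hbbe2, gata1a and epb41b followed at -0.63 ± 0.21, -0.28 ± 0.052 and -0.21 ± 0.11, the last of which did not pass. Other red cell genes pointed the other way without passing, hbae3 at 0.17 ± 0.19 and alas2 at 0.087 ± 0.16, both named after their values were seen. A list of radial and Müller glia markers was also drawn up after the values were seen. Of 9 measured, 2 passed with a positive and 5 with a negative ratio, where 9.92% and 9.43% of all genes did. The list is short and was drawn up with the values known, so this contrast is no test of glial genes. Among the glia markers that passed, slc1a3a stood at -1.47 ± 0.11, fabp7a at 0.84 ± 0.18, apoeb at -0.52 ± 0.076 and glulb at -0.48 ± 0.088. The part of these cell types in the ca2 and ca15a ratios was not tested.

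Of 14 measured genes of the SLC4, SLC12 and TRPV families outside the ionocyte lists, 1 passed, again not set apart from the 19.4% of all genes. It was slc12a7b, a potassium chloride cotransporter, at 0.61 ± 0.22 (SD, n = 3, adjusted p = 0.00391). Next came slc4a5a (-0.12 ± 0.10), trpv4 (-0.13 ± 0.18) and slc12a3 (-0.099 ± 0.090), the kidney Na+-Cl- cotransporter, none of which passed. The copies slc12a10.1 and slc12a10.3, neighbours of slc12a10.2 in the GRCz12tu assembly, had 0.049 ± 0.11 and 0.10 ± 0.026 and did not pass. Whether the probes tell these copies apart was not checked. The nearest genes to ca2 by Euclidean distance over the 3 array ratios were plppr3a (distance 0.0487), clic5b, an intracellular chloride channel family gene (0.0686), and celf3a, an RNA-binding protein gene (0.0870), all with 1 probe.

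A further list held signals and factors of the epidermal ionocyte decision. Of 15 measured, 6 passed with a negative and 1 with a positive ratio, where 9.43% and 9.92% of all genes did, and 8 did not pass. The list's median was -0.073. The receptor gene notch1a had -0.78, -0.77 and -0.47, a mean of -0.67 ± 0.17 (SD, n = 3, adjusted p = 0.00161), and the receptor gene notch3 had -0.24 ± 0.038 (adjusted p = 0.0183). The ligand gene jag1a followed at -0.24 ± 0.062 (adjusted p = 0.0209), with the hairy-related factor gene her9 at -0.56 ± 0.39 (adjusted p = 0.0278), where replicate 3 alone reached -1.004. The positive member was tp63, the factor that maintains basal epidermal cells, at 0.21 ± 0.080 (adjusted p = 0.0416). The related forkhead gene foxi1, which acts in the ear placode, had closely spaced values of -0.16, -0.18 and -0.16 but did not pass (adjusted p = 0.0609); it and tp63 were picked out after their values were seen. Notch genes are active in many tissues of the embryo, so a ratio from whole embryos does not show where they differed.

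A list of hormones, receptors and related genes of ion balance had calls on both sides. Of 15 measured, 2 passed with a positive and 2 with a negative ratio, where 9.92% and 9.43% of all genes did. With so few genes these shares are not set apart from that background. The gene stc1l, for stanniocalcin, a hormone that holds down calcium uptake in fish, had 0.74, 0.53 and 0.21, a mean of 0.49 ± 0.27 (SD, n = 3, adjusted p = 0.0145), and its relative stc2a had -0.59 ± 0.14 (adjusted p = 0.00184). The vitamin D breakdown gene cyp24a1 stood at -0.34 ± 0.12 (adjusted p = 0.01), its array values spread over -0.46, -0.34 and -0.22. The growth hormone gene gh1 stood at 0.26 ± 0.016 (adjusted p = 0.0133). The gene stc1, named after its values were seen, had -0.10 ± 0.049 and did not pass (adjusted p = 0.223).

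Markers of other skin cells were set beside the ionocyte genes. Of 13 measured keratinocyte markers, 2 passed with a positive and 3 with a negative ratio, where 9.92% and 9.43% of all genes did. With so few genes these shares are not set apart from that background. The median of the keratinocyte list was -0.048. The list means were -0.092, -0.015 and -0.22 on replicates 1, 2 and 3. They rested partly on evpla, with 0.29, -0.19 and -1.99, and without it, a step added after the values were seen, they were -0.12, -0.00055 and -0.068. The gene epcam, named after its values were seen and kept in all these means, varied widely too, with 0.35, 0.82 and -0.48. The annexin gene anxa2a had -0.65 ± 0.15, and the simple keratin genes krt8 and krt18a.1 had -0.28 ± 0.086 and -0.21 ± 0.024. The periplakin gene ppl had 0.21 ± 0.048, and the keratin gene krt5, named after its values were seen, had 0.23 ± 0.10. Of 4 measured mucous cell markers, 2 passed, both on the positive side, where 9.92% of all genes did. A list of 4 genes is too short to set its share apart. The 2 were muc5.1 at 0.50 ± 0.16 and agr2 at 0.31 ± 0.14. The others, muc5.2 at 0.28 ± 0.20 and spdef at -0.050 ± 0.11, did not pass.

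Further organs share ion transport genes with ionocytes. Of 10 measured markers of the pronephros, the embryonic kidney, 1 passed, a share not set apart from the 19.4% of all genes. It was pax2a, at 0.37 ± 0.14. The next were nphs1, trpm7 and slc12a3, at -0.16 ± 0.074, -0.11 ± 0.086 and -0.099 ± 0.090. Of 6 measured ear markers, 2 passed with a positive and 2 with a negative ratio, where 9.92% and 9.43% of all genes did. A list of 6 genes is too short to set its shares apart. The ear markers that passed were sparc (0.40 ± 0.083) and stm (0.33 ± 0.080) against oc90 (-0.56 ± 0.19) and otop1 (-0.41 ± 0.10). A ratio from whole embryos does not show in which organ these marker genes differed. The part of these organs in the ionocyte gene ratios was not tested.

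**Figure D5:**
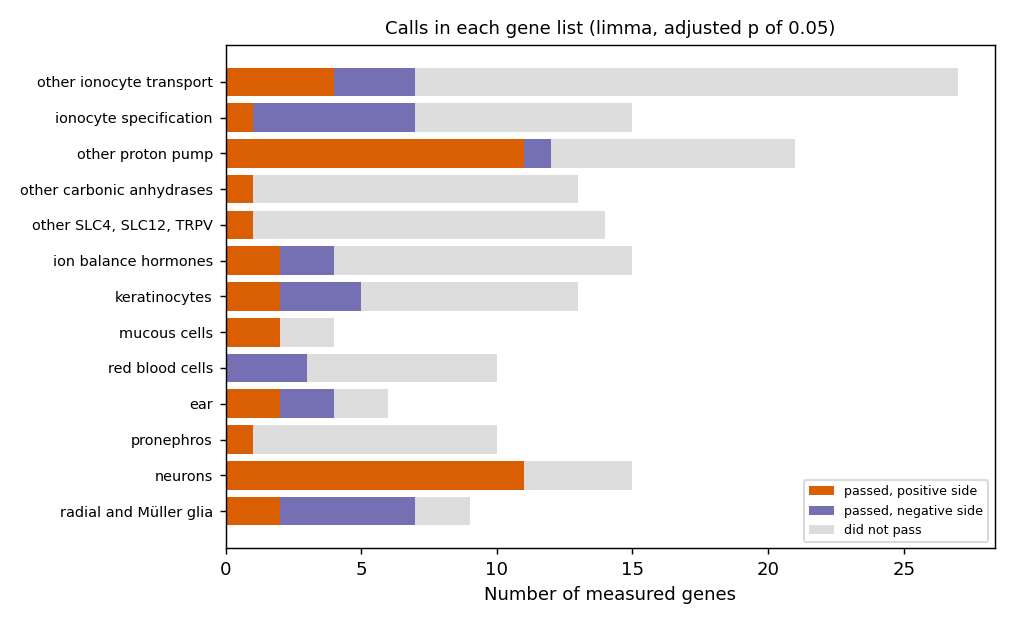
Number of measured genes (horizontal axis) in each list (vertical axis) that passed limma at an adjusted p of 0.05 on the positive or the negative side or did not pass. The proton pump list has 11 genes on the positive side, and the carbonic anhydrase list and the list of SLC4, SLC12 and TRPV genes have 1 passing gene each.

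The 3 calls among the ionocyte genes held when any 1 replicate was left out, with adjusted p values of at most 0.00928 for ca2, 0.0474 for ca15a and 0.0455 for atp6v1aa. They also held with a dye term, at 0.00664, 0.0371 and 0.0339. An ordinary one-sample statistic, which shares no variance between genes, left 0 of the 8 past the threshold (3 at an unadjusted p under 0.05), as it did for all 15571 genes. Every ratio holds the same pool, so the spread between untreated embryos is in none of these values, and a peculiarity of the pool would appear on all 3 arrays.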

How the data were processed

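The authors deposited a log ratio for each probe on each array, taken here as log2. Partek is named in the submitters' processing notes; how background and dyes were corrected, the log base and the numerator: not given in the sources used here. Deposited medians lay at -0.00355, -0.00289 and -0.00497, and no value was missing. The ratios carry no intensities, so dim probes could not be left out, and the number of arrays limits the precision.

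The sign of replicate 2, the dye swap, was turned. Of 43648 probes, 45 controls were left out. In the platform's annotation, 23717 probes had 1 symbol, 0 had several and 19886 had none. Averaging a gene's probes gave 15571 genes; 15416 were found by Entrez identifier in a GRCz12tu table, where 0 symbols differed. Means were tested against 0 with limma 3.58.1 (lmFit, eBayes) in R 4.3.3, with Benjamini-Hochberg adjustment over all genes. In 20 runs on simulated data, the fit recovered 20% of log2 changes of 0.3 and 86.5% of those of 0.5. Among its calls there, 4.89% were false. The simulation changed 200 of 15571 genes, fewer than the 3013 called in the data, so its rates may not hold for these calls. The replicates are separate groups of embryos. The pool counts as 1 control sample. Lists were described by counts and medians, with no set test. All members were named, with up to 4 genes of each list by smallest adjusted p and the 3 genes nearest to ca2. The members and lists were chosen with earlier results of these data known. Alternatives changed the array centring or scaling, quantile normalisation, dye term, prior, shared variance, rule for probes, threshold, minimum change and set of replicates. Plots used matplotlib 3.10.9 in Python 3.11.15.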

Additional observations from a re-analysis of the deposited data

How the results depend on the processing

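Of the 14 alternatives, the changed prior, ordinary statistic, stricter threshold and minimum change kept the same means, so no side could turn there. Taking the median of probes leaves genes with 1 or 2 probes unchanged, and no rule for probes could move ca15a, with 1 probe. Under the other alternatives the ratios of ca2, ca15a and atp6v1aa kept their side. Their calls were lost with the ordinary statistic, which left 0 on either side (2 positive and 1 negative at an unadjusted p under 0.05), and a minimum change of 1.2-fold in limma left 1 positive and 0 negative (2 and 0 unadjusted). Leaving out any 1 replicate kept 2 positive and 1 negative calls. Near 0, slc4a4b ranged from -0.064 to 0.0095 when a replicate was left out, turning without replicate 1, and 1 trpv6 probe stood at 0.0067; neither had passed. For the other ionocyte transport genes, the 4 positive calls became 1 with the dye term, 0 with the ordinary statistic (3 unadjusted), 1 at an adjusted p of 0.01, 0 with the minimum change (0 unadjusted) and 2 with every probe on its own. The 3 negative calls became 0, 1 and 0 under the ordinary statistic (2 unadjusted), the stricter threshold and the minimum change (1 unadjusted). Without 1 replicate positive calls ranged from 0 to 5 and negative ones from 2 to 5. Over all genes, 3013 calls became 1465 with the dye term, 1041 without replicate 2, 1434 at an adjusted p of 0.01, 505 with the minimum change, 1791 with every probe on its own and 0 with the ordinary statistic (3417 unadjusted). The dye term and each fit without a replicate had 1 residual degree of freedom. No paired analysis was possible because there is 1 group, set against a shared pool. Signal over background is unknown, so weak probes cannot be told from small differences.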
